A study of Mus musculus with 17 samples.

Results

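The genes described here encode the constitutive proteasome, the protease that degrades ubiquitin-tagged proteins in every cell, and they were followed in mouse embryonic fibroblasts (MEFs) with 2, 1 or 0 intact alleles of Usp28 (+/+, +/- and -/-). Usp28 encodes a deubiquitinase, an enzyme that takes ubiquitin off other proteins and so acts upstream of the proteasome. The members were chosen by name: 7 alpha and 7 beta subunits of the 20S core, 18 subunits of the 19S particle, the base assembly chaperone Psmd5, 4 activator genes (Psme1 to Psme4) and the inhibitor gene Psmf1. All 38 were found by symbol, among 37576 gene IDs in the table of immortalized cells and 33440 in the table of Ras-transformed cells.

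The MEFs came from C57bl/6 embryos at E13.5 and were all immortalized with a retroviral hairpin against p19ARF (shp19ARF), controls included. The immortalized set has 3 libraries for each genotype. In the Ras set, with 2 libraries a group, cells additionally carried HRasG12V, an oncogenic form of the small GTPase HRas. The Ras +/+, +/- and -/- groups also carried a GFP vector, and a further Ras +/+ group carried a USP28 vector in its place. The design text calls the immortalized libraries biological triplicates and the Ras libraries duplicates, and it gives no number of embryos or clones. The deposited p-values were closely reproduced with a dispersion (spread between libraries) shared by all genes of a comparison. They therefore do not measure the spread of a given gene. That shared spread is between these libraries, and in the Ras set it may be technical.

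In the 26S proteasome, the barrel-shaped 20S core holds the proteolytic sites inside its beta rings, and the alpha rings gate the entry. The 19S particle caps the core: its base carries a ring of ATPases that unfold the substrate, and its lid carries the enzyme that removes the ubiquitin chain. Other caps replace the 19S particle, among them PA28 alpha-beta (Psme1 and Psme2), PA28 gamma (Psme3) and PA200 (Psme4). Cells are known to adjust the subunit genes together through the transcription factor NRF1 (Nfe2l1) and antioxidant response elements in their promoters. Interferons are known to raise PA28 alpha-beta and to exchange catalytic beta subunits for inducible ones.

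The authors' deposited tables hold comparisons against +/+ and no value for a single library. Levels are therefore group values in RPM (reads per 1000000 reads) rebuilt from those tables, with 1 value per group, so overlap between the libraries of 2 groups cannot be read. Log2 ratios are of the other group over +/+ unless said otherwise, and the implied SE printed beside them was computed from the read counts and 1 dispersion shared by all genes of the comparison, so it is no spread measured for the gene. A gene was called when its Benjamini-Hochberg adjusted p, from the deposited edgeR p over all genes with a mean of at least 1 RPM, was under 0.05. All 38 members passed that level in every comparison, with 125 to 5482 reads a group at group depths of 11.38 to 13.95 in units of 1000000 reads. Levels of the immortalized groups are listed in the order +/+, +/-, -/-, and those of the Ras groups in the order +/+, +/-, -/-, USP28 vector; the tables were normalized apart, so levels are to be compared within a set.

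Usp28 itself stood at 16.5, 9.96 and 13.3 RPM in the immortalized groups and at 26.5, 18.6, 14.8 and 26.4 RPM in the Ras groups. Its log2 ratio in Ras -/- cells was -0.83 (implied SE 0.25, adjusted p = 0.004 by the deposited edgeR p), and it was not called in the other comparisons. Which exons the allele removes, and whether reads of the USP28 vector align to the mouse gene, is not given in the sources used here. Of 8 fibroblast markers, Col1a1, Col1a2, Vim and Fn1 were each at 1157.5 RPM (Col1a2 in Ras +/-) or more in all 7 groups. The other 4 varied: Thy1 was at 177 to 289 RPM in immortalized and at most 0.502 RPM in Ras groups, Pdgfrb at 195 to 354 and 7.06 to 174 RPM, Pdgfra at 27.2 to 119.9 and 21.6 to 90.9 RPM, and Col3a1 at 1669 to 4419 and 199 to 1145 RPM. Summed over 5 epithelial markers, levels were 50.5, 212 and 68.4 RPM in the immortalized groups and 72.2, 1130.2, 1.36 and 86.2 RPM in the Ras groups, with at most 1 marker at 0 in any of them. Summed over 4 mesothelial markers they were 23.3, 1171 and 10.7 RPM, and 425, 1013, 6.31 and 467 RPM, again with at most 1 at 0. In the Ras +/+ and USP28 vector groups 1 marker made up nearly all of each sum. Msln was at 425 and 466 RPM there, with Upk3b, Lrrn4 and Wt1 at most 0.521 RPM. Krt19 was at 71.5 and 85.4 RPM there, with the other epithelial markers at most 0.596 RPM. Xist, which is expressed from the inactive X chromosome of female cells, stood at 89.6, 296 and 126 RPM and at 336, 25.5, 0.215 and 323 RPM. The Y-linked Eif2s3y was at 18.7 RPM in immortalized +/+, 14.9 in -/- and 0 in +/- (a count of 0 allows up to 3 reads), and at 22.4 RPM in Ras -/- and at most 0.151 RPM in the other Ras groups. In both sets the groups thus differ in lineage markers and in sex-linked genes as well as in genotype, and with 1 value per group these cannot be told apart. In bulk RNA, fewer cells of a type and less RNA per cell cannot be told apart.

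In immortalized cells, none of the 38 members was called by genotype. Against +/+, the -/- group had 32 of 38 members above 0 with a median log2 ratio of 0.20, beside a median of 0.07 over all genes tested, and 2 members had an unadjusted p under 0.05. Those were Psme4, at a log2 ratio of 0.73 (implied SE 0.26, adjusted p = 0.093 by the deposited edgeR p), and Psmd14, at 0.55 (implied SE 0.26, adjusted p = 0.288). Over all genes, 1.29% were called higher and 2.93% lower, so a list with no call is close to the background. In the +/- group the median of the members was 0.10, none had an unadjusted p under 0.05, and 5.04% of all genes were called higher and 3.21% lower. The errors were wide: 95% intervals of single members ran from -0.69 (Psma6) to 1.25 (Psme4) in -/- and from -1.28 (Psme2) to 1.30 (Psme4) in +/-. Summed over the 38 members, levels were 3536, 3613 and 3994 RPM.

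In Ras-transformed cells, members moved in both directions. Ras -/- cells had 3 members higher and 4 lower than Ras +/+ cells, where 15.2% of all genes were called higher and 12.4% lower; the median log2 ratio of the members was -0.28, beside -0.01 over all genes, and 28 of 38 lay below 0. Ras +/- cells had 6 members higher and 3 lower, where 17.5% of all genes were called higher and 16.7% lower, and the median of the members was 0.05. The 18.4% of members called in -/- and the 23.7% called in +/- are each below the 27.6% and 34.1% of all genes called in either direction. By the authors' own adjusted p in the deposited table, 4 of the 7 calls in -/- and 6 of the 9 in +/- passed; with the dispersion doubled, 2 and 5 did. Both comparisons share the Ras +/+ libraries. Summed levels of the members were 4550.2, 4622, 3937 and 4738 RPM.

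The USP28 vector moved no member past the threshold in Ras +/+ cells, and none had an unadjusted p under 0.05. The median log2 ratio was 0.08, beside 0.01 over all genes, and the members ran from -0.13 (Psme3) to 0.41 (Psme1). Over all genes 0.0907% were called higher and 0.997% lower. The 95% intervals of single members lay between -0.50 and 0.86. They rest on the dispersion shared by all genes and not on the spread of each member, so they do not exclude a larger change of a given member. Usp28 itself was at 26.5 RPM without and 26.4 RPM with the vector.

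**Figure D1:**
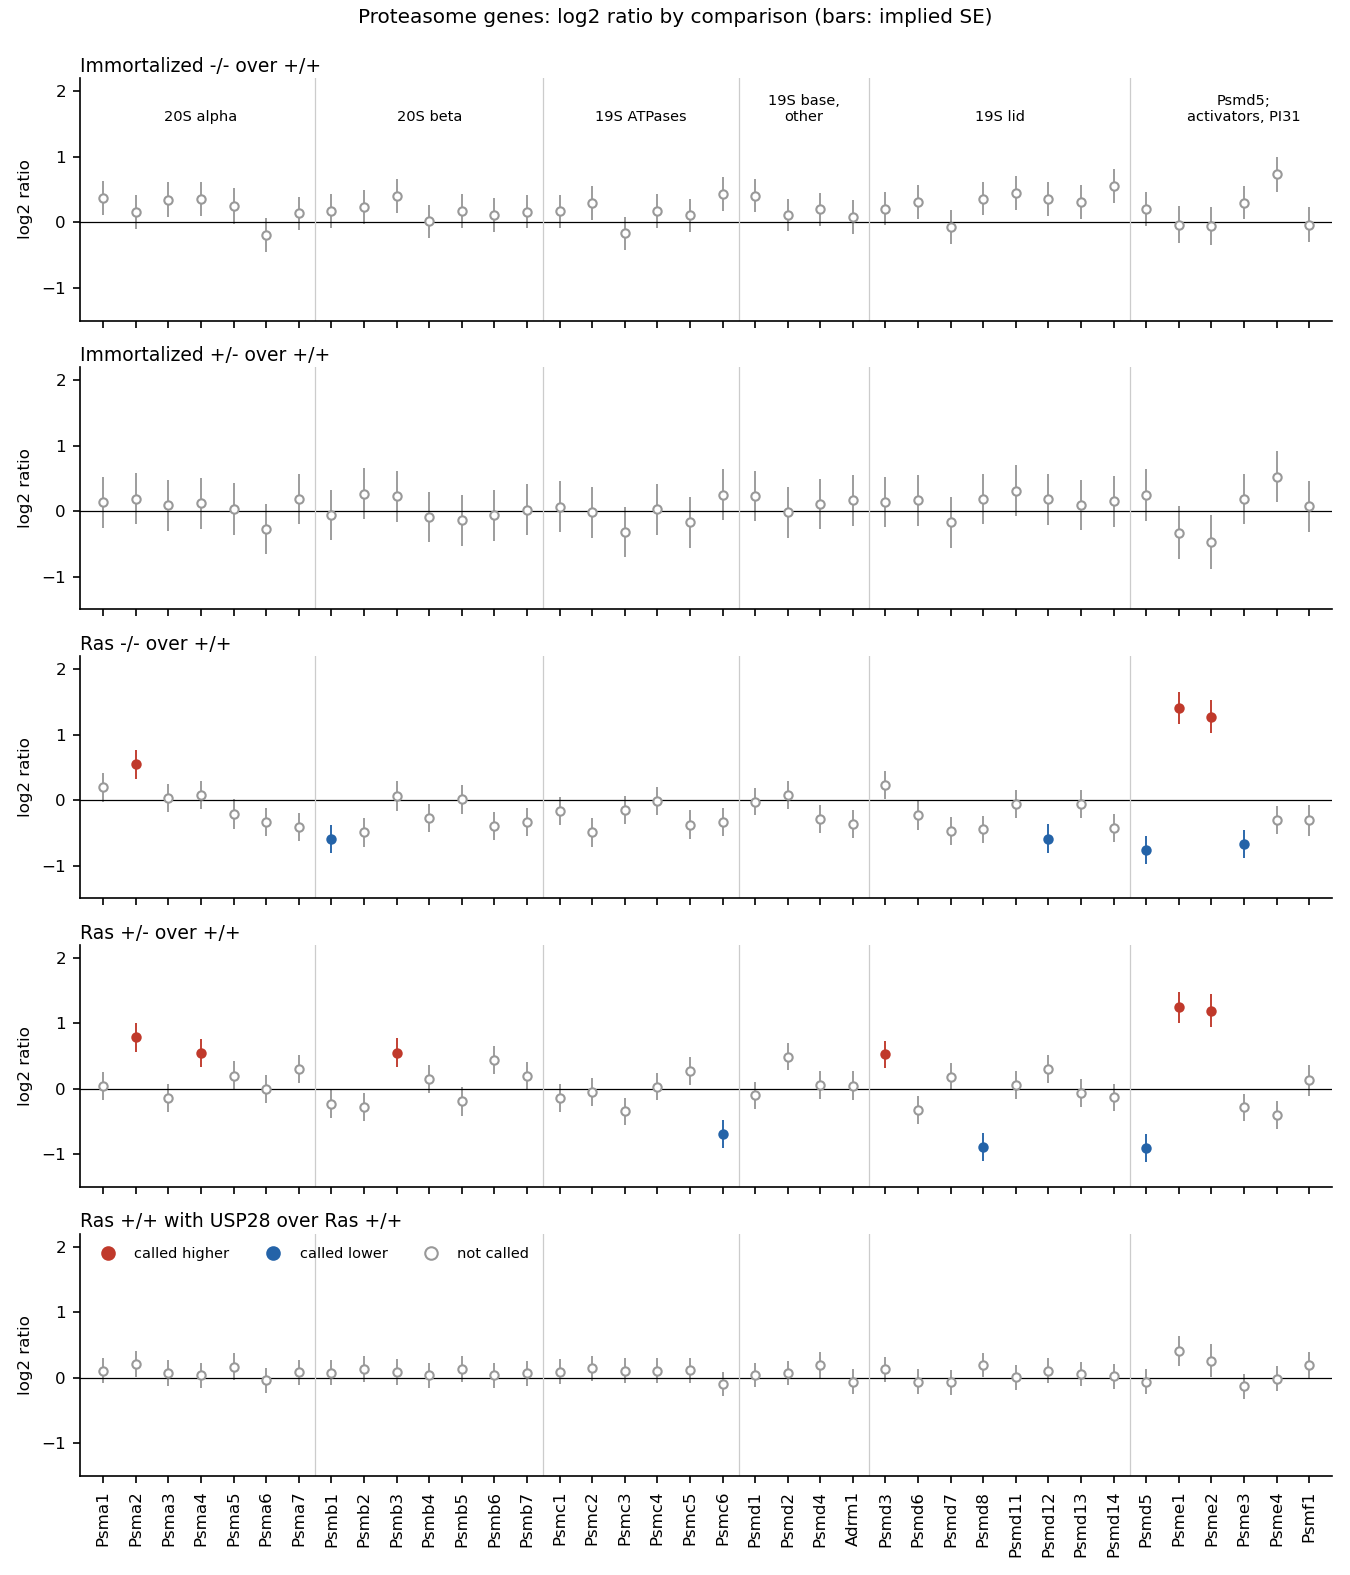
Log2 ratio of each of the 38 members over +/+ (y axis, bars are the implied SE) in the 5 comparisons, with members ordered by role along the x axis and filled points for those called. Calls appear in the Ras -/- and Ras +/- panels only, and Psme1 and Psme2 stand highest in both, between 1.20 and 1.40.

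The alpha ring genes encode the subunits that form the gate of the core. Of the 7, Psma2 was higher in Ras -/- and +/- cells and Psma4 in +/- cells, and 0 were lower. Psma2 (chromosome 13, 14613240 to 14674236, plus strand, GRCm38) stood at 63.5, 72.4 and 70.8 RPM in the immortalized groups and at 45.4, 78.4, 66.4 and 52.5 RPM in the Ras groups. Ras +/+ cells were thus the lowest of the Ras groups. Its log2 ratio was 0.79 in +/- (implied SE 0.22, adjusted p = 0.00168 by the deposited edgeR p) and 0.55 in -/- (implied SE 0.22, adjusted p = 0.0493). The -/- call of Psma2 was lost when genes of any level were tested (no filter on level) and by the authors' deposited adjusted p (0.105). Psma4 (chromosome 9, 54950790 to 54958030, plus strand) stood at 57.2, 62.2 and 73.0 RPM and at 83.4, 122, 88.1 and 85.6 RPM. The +/- group stood alone above the other Ras groups, with a log2 ratio of 0.55 (implied SE 0.21, adjusted p = 0.0313; the authors' deposited adjusted p was 0.0665), and 114 bases of its exons overlap the antisense gene AY074887. The median log2 ratio of the ring was 0.03 in Ras -/- and 0.20 in Ras +/- cells. The lowest ratios were those of Psma7 in Ras -/- (-0.41, adjusted p = 0.151) and Psma3 in Ras +/- cells (-0.14, adjusted p = 0.682). Psma6 was lowest in immortalized -/- (-0.19), immortalized +/- (-0.27) and with the USP28 vector (-0.04), where the highest were Psma1 (0.37), Psma2 (0.19) and Psma2 (0.21).

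The beta ring genes include those of the catalytic subunits: Psmb6 encodes the caspase-like site, Psmb7 the trypsin-like and Psmb5 the chymotrypsin-like. None of these 3 was called against +/+. In Ras cells Psmb5 stood at 63.5, 55.7, 64.0 and 69.4 RPM, Psmb6 at 77.1, 105, 58.6 and 79.2 RPM, and Psmb7 at 127, 146, 101 and 133 RPM. Psmb6 was highest in Ras +/- and lowest in Ras -/- cells. Of the structural members, Psmb1 (chromosome 17, 15475021 to 15499751, minus strand) stood at 127, 108, 84.3 and 134 RPM in the Ras groups and was lower in Ras -/- cells (log2 ratio -0.59, implied SE 0.22, adjusted p = 0.0245 by the deposited edgeR p; the authors' deposited adjusted p was 0.0527). Psmb3 (chromosome 11, 97703399 to 97713500, plus strand) stood at 42.0, 61.7, 43.8 and 44.5 RPM and was higher in Ras +/- cells (0.56, implied SE 0.22, adjusted p = 0.0376). In the immortalized groups Psmb1 was at 84.3, 80.9 and 95.2 RPM and Psmb3 at 39.6, 46.3 and 52.3 RPM, and neither was called. The call of Psmb3 was lost with no filter on level and by the authors' deposited adjusted p (0.0798). The median log2 ratio of the ring was -0.34 in Ras -/- and 0.16 in Ras +/- cells, where Psmb3 (0.06, adjusted p = 0.899) and Psmb2 (-0.27, adjusted p = 0.355) were the opposite ends. The ring ran from 0.01 (Psmb4) to 0.40 (Psmb3) in immortalized -/-, from -0.14 (Psmb5) to 0.27 (Psmb2) in immortalized +/- and from 0.04 (Psmb4) to 0.14 (Psmb2) with the USP28 vector. Psmb7 shares 405 exon bases with Nek6 on the other strand, pseudogenes of Psmb5, Psmb6 and Psmb7 are annotated, and whether the authors' counting used strand is not given in the sources used here.

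Of the 6 ATPase genes of the base, which form the unfolding ring, Psmc6 was lower in Ras +/- cells and 0 were higher. Psmc6 (chromosome 14, 45329788 to 45349705, plus strand) stood at 47.4, 56.5 and 64.0 RPM in the immortalized groups and at 127, 78.7, 101 and 119 RPM in the Ras groups. The +/- level was the lowest of the Ras groups, with a log2 ratio of -0.69 (implied SE 0.21, adjusted p = 0.00559 by the deposited edgeR p). In Ras -/- cells its ratio was -0.33 (adjusted p = 0.259), and the ends of the group there were Psmc2 (-0.49, adjusted p = 0.0696) and Psmc4 (-0.01). In Ras +/- cells Psmc5 stood at the upper end (0.27, adjusted p = 0.354). All 6 lay below 0 in Ras -/- cells, with a median of -0.25, and the median in Ras +/- cells was -0.09. Psmc3 was lowest and Psmc6 highest in immortalized -/- (-0.16 and 0.43) and in immortalized +/- cells (-0.32 and 0.25), and with the USP28 vector the ends were Psmc6 (-0.10) and Psmc2 (0.15).

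The 4 remaining base genes encode the scaffold proteins Rpn2 and Rpn1 (Psmd1 and Psmd2) and the ubiquitin receptors Rpn10 and Rpn13 (Psmd4 and Adrm1), which bind the ubiquitin chain of a substrate. None was called. Psmd2 came nearest, and it passed when only genes of at least 5 RPM were tested: it stood at 295, 415, 311 and 310 RPM in the Ras groups, where the log2 ratio in +/- was 0.49 (implied SE 0.21, adjusted p = 0.0502 by the deposited edgeR p). The receptors lay between 88.7 and 101 RPM (Psmd4) and between 66.3 and 71.5 RPM (Adrm1) in the Ras groups other than -/-, and at 72.6 and 53.6 RPM in Ras -/- cells, where their ratios were -0.29 (adjusted p = 0.344) and -0.37 (adjusted p = 0.221). At the opposite ends were Psmd2 in Ras -/- (0.08, adjusted p = 0.842) and Psmd1 in Ras +/- cells (-0.10, adjusted p = 0.775). The 4 ran from 0.08 (Adrm1) to 0.41 (Psmd1) in immortalized -/-, from -0.02 (Psmd2) to 0.23 (Psmd1) in immortalized +/- and from -0.06 (Adrm1) to 0.19 (Psmd4) with the USP28 vector.

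The 8 lid genes include Psmd14, whose product Rpn11 cuts the ubiquitin chain off the substrate during degradation. In Ras -/- cells 1 was lower and 0 were higher, and in Ras +/- cells 1 was higher and 1 lower. Psmd12 (chromosome 11, 107479484 to 107504362, plus strand), which encodes the lid scaffold Rpn5, stood at 51.8, 58.9 and 66.4 RPM in the immortalized groups and at 99.9, 124, 66.5 and 108 RPM in the Ras groups. Ras -/- cells were the lowest of the Ras groups, with a log2 ratio of -0.59 (implied SE 0.22, adjusted p = 0.0286 by the deposited edgeR p; the authors' deposited adjusted p was 0.0612), while Ras +/- cells were the highest, at 0.31 (adjusted p = 0.276). Psmd8 (chromosome 7, 29174188 to 29180701, minus strand), which encodes Rpn12, stood at 239, 272 and 306 RPM and at 230.3, 124, 169 and 263 RPM. The +/- level was the lowest there, with a ratio of -0.89 (implied SE 0.21, adjusted p = 0.000153), and that of -/- was -0.45 (adjusted p = 0.101). Psmd3 (chromosome 11, 98682554 to 98695979, plus strand), which encodes Rpn3, stood at 157, 227, 184 and 172 RPM in the Ras groups and was higher in +/- cells (0.53, implied SE 0.21, adjusted p = 0.0372), a call that was lost with no filter on level and by the authors' deposited adjusted p (0.0789). Psmd14 stood at 56.4, 62.7 and 82.6 RPM and at 141, 129, 105 and 144 RPM; its ratios were 0.55 in immortalized -/- (adjusted p = 0.288) and -0.43 in Ras -/- cells (adjusted p = 0.127). In Ras -/- cells Psmd3 stood highest (0.23, adjusted p = 0.467) and the median of the lid was -0.33. Psmd7 was lowest in immortalized -/- (-0.07), immortalized +/- (-0.17) and with the USP28 vector (-0.07), where Psmd14 (0.55), Psmd11 (0.31) and Psmd8 (0.19) stood highest.

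Psmd5 was lower in both Ras genotypes. It encodes S5b, a chaperone that helps to assemble the ATPase base and is not part of the finished 26S proteasome. Psmd5 (chromosome 2, 34849734 to 34874968, minus strand) stood at 42.1, 50.1 and 48.6 RPM in the immortalized groups and at 111, 59.3, 65.2 and 106 RPM in the Ras groups. The +/- and -/- groups were each well under both Ras +/+ groups, with log2 ratios of -0.90 (implied SE 0.22, adjusted p = 0.000186 by the deposited edgeR p) and -0.76 (implied SE 0.22, adjusted p = 0.00282). The immortalized ratios were 0.25 and 0.21 (adjusted p = 1 and 0.838).

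**Figure D2:**
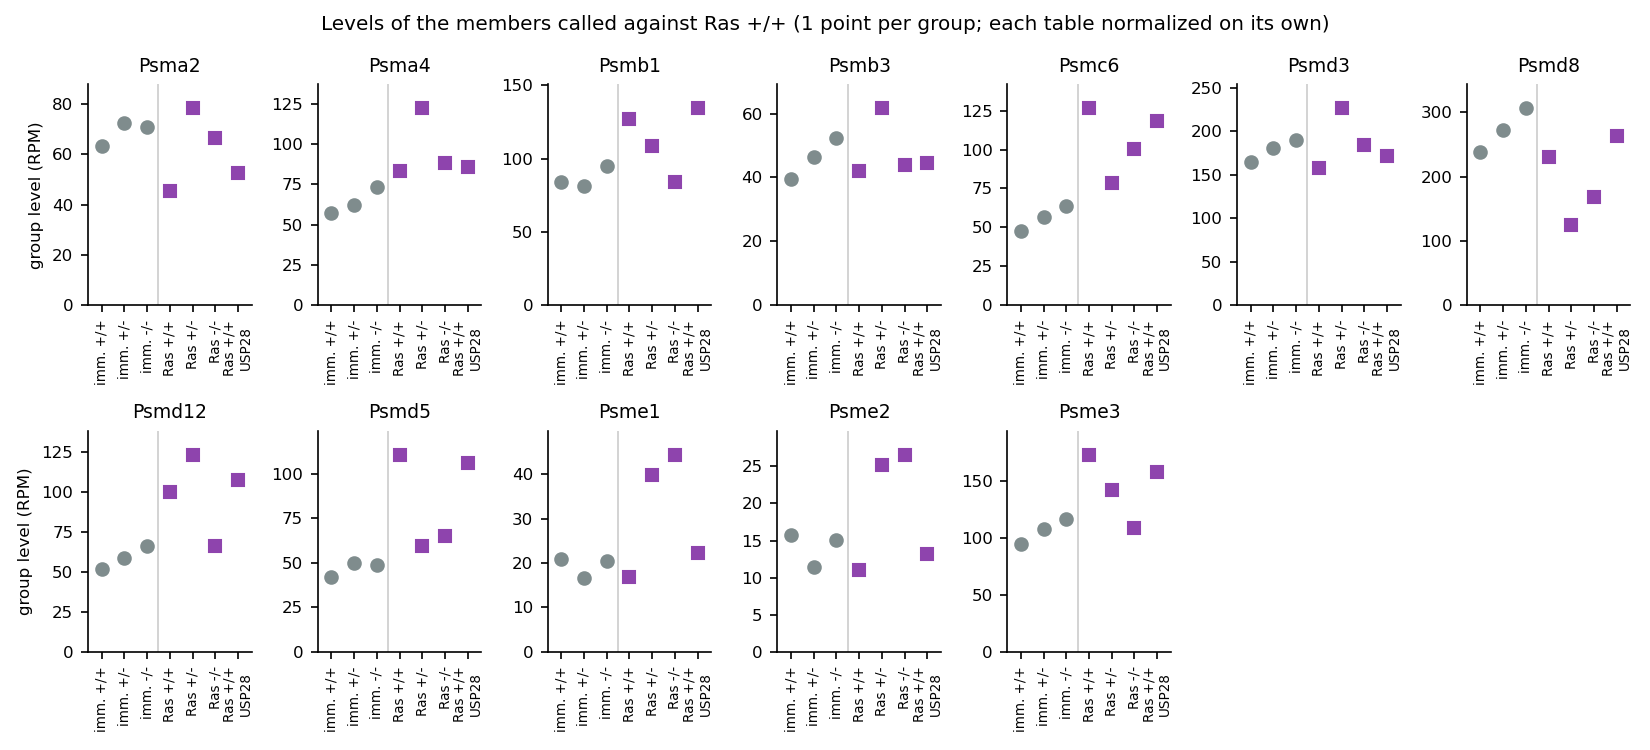
Group level in RPM (y axis, from 0) of the 12 members called against Ras +/+, 1 point per group, with immortalized groups as grey circles and Ras groups as purple squares. Psme1 and Psme2 are high in Ras +/- and -/- and Psmd5 is low there, and none of the 12 was called in the USP28 group.

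The largest ratios of all members were those of Psme1 and Psme2, which encode the alpha and beta chains of the PA28 ring, a cap that opens the core without using ATP or ubiquitin. The genes lie near each other on chromosome 14, Psme1 at 55578123 to 55581529 on the plus strand and Psme2 at 55587441 to 55591113 on the minus strand (GRCm38), with 5911 bases between their facing ends, where the annotation places Emc9, which shares 14 exon bases with Psme1 on the other strand. Their promoters are shown because the levels of this pair moved together, from 250 bases before to 30 after a RefSeq start (GRCm38.p6; chr14:55578244-55578523 on the plus and, for the second of 2 Psme2 starts, chr14:55591072-55591351 on the minus strand). Capitals mark GAAANNGAAA, the core of the interferon-stimulated response element, on either strand:
Psme1: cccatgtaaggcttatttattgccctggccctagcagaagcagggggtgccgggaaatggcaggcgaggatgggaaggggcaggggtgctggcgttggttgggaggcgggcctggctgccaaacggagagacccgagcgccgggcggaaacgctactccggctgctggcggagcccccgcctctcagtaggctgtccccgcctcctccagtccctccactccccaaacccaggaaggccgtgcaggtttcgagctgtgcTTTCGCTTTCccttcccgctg
Psme2: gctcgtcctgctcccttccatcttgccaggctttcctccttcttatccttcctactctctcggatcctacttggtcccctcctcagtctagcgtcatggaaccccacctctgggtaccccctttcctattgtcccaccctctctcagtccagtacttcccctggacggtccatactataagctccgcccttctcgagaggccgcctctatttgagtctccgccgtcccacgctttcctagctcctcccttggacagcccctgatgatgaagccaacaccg
The Psme1 window holds a match that begins at base 10 of the transcript, and the Psme2 window holds none. This motif was added after the values were seen, and it was counted from 250 bases before to 30 after a start. It occurs in 3 of the 32 members with a promoter in the RefSeq table (Psmb3, Psmd4 and Psme1) and in 3.8% of 27025 genes. A match is a description of letters and not a site.

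Psme1 stood at 20.9, 16.6 and 20.3 RPM in the immortalized groups and at 16.8, 39.8, 44.4 and 22.3 RPM in the Ras groups. Psme2 stood at 15.8, 11.4 and 15.1 RPM and at 11, 25.2, 26.6 and 13.2 RPM. Both genes were high in Ras +/- and -/- cells and low in both Ras +/+ groups. The log2 ratio of Psme1 was 1.40 in Ras -/- (implied SE 0.24, adjusted p = 7.44e-08 by the deposited edgeR p) and 1.25 in Ras +/- cells (implied SE 0.24, adjusted p = 1.71e-06). That of Psme2 was 1.27 (implied SE 0.26, adjusted p = 8.43e-06) and 1.20 (implied SE 0.25, adjusted p = 2.56e-05). The near-identical copy Psme2b stood at 17.4, 42.8, 40.2 and 22.2 RPM in the Ras groups, with ratios of 1.21 in -/- and 1.30 in +/- cells, and how the authors shared reads between these copies is not given in the sources used here. In immortalized cells the ratios were -0.04 and -0.06 in -/- and -0.33 and -0.47 in +/- (adjusted p of 0.881 or higher).

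None of the other 3 genes of this group was called higher. Psme3 (chromosome 11, 101316213 to 101323537, plus strand), which encodes the nuclear PA28 gamma, stood at 94.5, 107 and 116 RPM and at 173, 142, 108 and 158 RPM; it was lower in Ras -/- cells (log2 ratio -0.67, implied SE 0.21, adjusted p = 0.00855 by the deposited edgeR p) and at -0.28 in +/- (adjusted p = 0.32). Psme4, which encodes the nuclear cap PA200, stood at 38.6, 55.7 and 64.3 RPM and at 102, 77.8, 83.0 and 101 RPM. For Psme4, +/+ was lowest in immortalized and highest in Ras cells, while -/- was above +/- in both sets. Psme4 was called in 0 comparisons against +/+ (adjusted p of 0.093 or higher by the deposited edgeR p). Its ratios were 0.73 and 0.53 in immortalized -/- and +/- and -0.30 and -0.39 in Ras -/- and +/- cells. Psmf1, which encodes the inhibitor PI31, lay between 23.0 and 32.5 RPM in all 7 groups.

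Among inducible core subunits, Psmb10, which replaces Psmb7 in the immunoproteasome, stood at 17.2, 9.76 and 12.8 RPM and at 8.91, 31.3, 17.3 and 8.94 RPM. It was higher in Ras -/- (log2 ratio 0.95, adjusted p = 0.0028 by the deposited edgeR p) and in Ras +/- cells (1.81, adjusted p = 3.7e-11). Psmb8, which replaces Psmb5, was at 3.01, 0.161 and 1.31 RPM in the immortalized groups, lower in +/- (-4.22, adjusted p = 4.8e-05), and at most 0.0717 RPM, which is 1 read, in the Ras groups. Psmb9 was not analysed here.

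Of 14 interferon response genes, 12 were higher and 0 lower in Ras -/- cells, where 15.2% of all genes were higher and 12.4% lower. In Ras +/- cells 2 of 11 tested were higher and 8 lower, where 17.5% of all genes were higher and 16.7% lower. The 2 were Irf1, an interferon-induced transcription factor (log2 ratio 1.93 in -/- and 2.37 in +/-), and Tapbp, which loads peptides on MHC class I (1.62 and 0.99). Isg15, a ubiquitin-like modifier, stood at 2.47, 0.303, 85.1 and 3.65 RPM in the Ras groups. The list summed to 436 RPM in Ras +/+, 437 RPM in Ras +/- and 1691 RPM in Ras -/- cells. Within the +/- sum, Tapbp (114 RPM in Ras +/+, 227 RPM in +/-) and B2m (219 and 114 RPM) moved in opposite directions. Irf1 (10.2, 53.1, 38.9 and 10.2 RPM in the Ras groups) was high in both genotypes, as Psme1 and Psme2 were. Whether interferon signalling bears on Psme1 and Psme2 was not tested. In immortalized cells 0 of 12 tested were higher and 1 lower in either genotype (Tapbp in -/-, Tap2 in +/-).

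**Figure D3:**
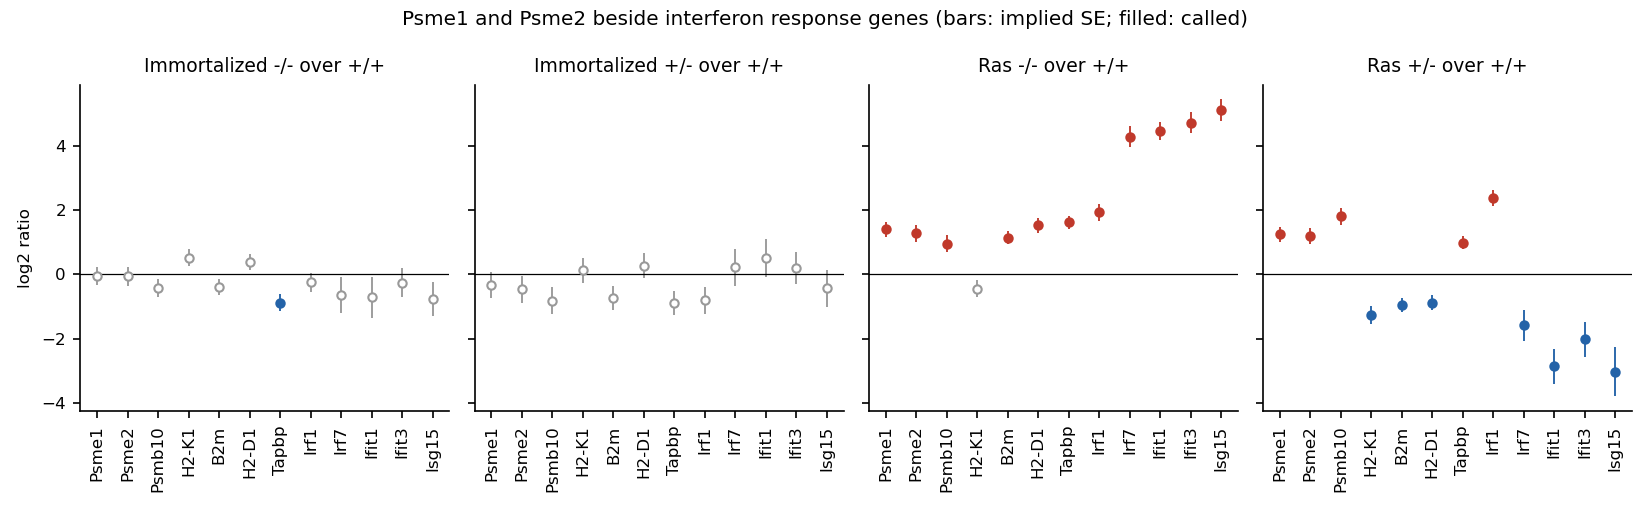
Log2 ratio over +/+ (y axis, bars are the implied SE, filled points are called) of Psme1, Psme2, the inducible subunit gene Psmb10 and 9 interferon response genes tested in all 4 comparisons shown. In Ras -/- cells Isg15 was at 5.10, Irf1 at 1.93 and Psme1 at 1.40. In Ras +/- cells Isg15 was at -3.03, Irf1 at 2.37 and Psme1 at 1.25.

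The NRF1 pathway was read from a list of 8 regulators. Nfe2l1, which encodes NRF1, stood at 306, 240.0, 319 and 290.0 RPM in the Ras groups and was called in 0 comparisons against +/+, with log2 ratios of 0.06 in -/- and -0.35 in +/- (adjusted p = 0.87 and 0.19 by the deposited edgeR p). Nfe2l2, which encodes the related factor NRF2, was higher in Ras -/- (0.64, adjusted p = 0.014) and +/- cells (0.84, adjusted p = 0.00044). Mafk, a small MAF partner of both factors, was lower in Ras -/- and +/- cells (-0.63 and -0.65, adjusted p = 0.019 and 0.011 by the deposited edgeR p). The other small MAF genes, Mafg (-0.14 and -0.20) and Maff (0.10 and -0.23), were called in neither, nor was Nfya. Ngly1, the glycanase that activates NRF1, was higher in Ras -/- cells (0.96, adjusted p = 0.00094 by the deposited edgeR p). Nfe2l3 was higher in both +/- groups (2.65 immortalized, 5.22 Ras). Its +/+ levels were only 0.650 RPM (8 reads) in immortalized and 0.440 RPM (5 reads) in Ras cells. The +/- levels were 4.09 and 16.4 RPM, and the size of these ratios rests on the few +/+ reads. Of 7 antioxidant genes that NRF2 is known to induce, 0 were higher in either Ras genotype and 1 was lower in each. These were Nqo1 in -/- (-0.83) and Srxn1 in +/- (-0.65). Over all genes 15.2% were called higher and 12.4% lower in Ras -/-, and 17.5% and 16.7% in Ras +/- cells. Thus 0 or 1 call among 7 genes is close to the background. Hmox1 was lower with the USP28 vector (-0.69, adjusted p = 0.035 by the deposited edgeR p), a call that ended by the authors' deposited adjusted p (0.0766).

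Lists of other genes around the proteasome held calls in Ras cells, where 27.6% (-/-) and 34.1% (+/-) of all genes were called in either direction. Of 7 assembly chaperones tested, 2 were higher in -/- and 3 in +/-. Psmd10, a base chaperone (log2 ratios 0.71 and 1.30), and Psmg4, a core chaperone (0.81 and 0.74), were higher in both. Psmg1 was higher in +/- (0.57). Psmd10 lies on the X chromosome, and the Ras groups differed in Xist and Eif2s3y. Whether these differences bear on Psmd10 was not tested. Of 6 other 26S-associated proteins, Ecpas, an adaptor that binds the 26S particle, was lower in both (-0.73 and -0.85), Usp14, a deubiquitinase of the 19S base, in +/- (-0.70), and the small lid subunit Sem1 was higher in -/- (0.60). Of 11 shuttle and segregase genes, Rad23b, which carries ubiquitinated proteins to the proteasome, was lower in both (506 RPM in Ras +/+, 259.7 in +/- and 260.0 in -/-, log2 ratio -0.96 in each). In +/- cells Zfand5 was higher (0.64) and Zfand2a lower (-0.58). Of 6 ubiquitin and E1 genes, the E1 gene Uba6 was lower in both (-0.70 and -0.86) and higher in immortalized -/- cells (0.90, adjusted p = 0.031 by the deposited edgeR p) and Ubb was higher in +/- (0.76). By the authors' deposited adjusted p the calls of Psmg4 (0.0611 in -/- and 0.0982 in +/-), Psmg1 (0.105), Sem1 (0.0564) and Zfand2a (0.0647) ended. In immortalized cells the 4 lists had 0 other calls.

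The -/- and +/- groups were then compared with each other by an approximate Wald test. In immortalized cells 0 of 38 members differed and 0 had an unadjusted p under 0.05, where 1.27% of all genes were higher and 2.19% lower in -/-. In Ras cells 2 members were lower in -/- than in +/-, where 11.3% of all genes were higher and 9.53% lower: Psmb6 (log2 difference -0.84, implied SE 0.30, adjusted p = 0.0279) and Psmd12 (-0.89, implied SE 0.30, adjusted p = 0.0171). The members had a median of -0.30, beside -0.01 over all genes. These errors carry the dispersion of both comparisons and are therefore wide; with that of the 2 groups alone 6 members were lower, the further ones being Psma7, Psmb7, Psmc5 and Psmd7. For Psme1 the difference was 0.16 (implied SE 0.30, adjusted p = 0.778), and for Psme2 0.08 (implied SE 0.31, adjusted p = 0.902). Psmb10 was lower in -/- than in +/- (-0.86, adjusted p = 0.035).

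The -/- effect in Ras cells differed from that in immortalized cells for 7 members by the same kind of test, where 11.4% of all genes had a higher and 9.24% a lower effect. Higher were Psme1 (log2 difference 1.44, implied SE 0.37, adjusted p = 0.00106) and Psme2 (1.33, implied SE 0.39, adjusted p = 0.00503). Lower were Psme4 (-1.03, implied SE 0.34, adjusted p = 0.0162), Psme3 (-0.98, implied SE 0.33, adjusted p = 0.021), Psmd14 (-0.98, implied SE 0.34, adjusted p = 0.0221), Psmd5 (-0.97, implied SE 0.34, adjusted p = 0.0268) and Psmd12 (-0.95, implied SE 0.34, adjusted p = 0.0298). The median difference of the members was -0.44, beside -0.10 over all genes, with 33 of 38 below 0. The calls of Psmd5 and Psmd12 ended when ratios were centred on the median gene. By the same Wald test the +/- effect differed for Psme1 (1.57, implied SE 0.47, adjusted p = 0.00945) and Psme2 (1.66, implied SE 0.49, adjusted p = 0.00773). There 6.87% of all genes had a higher and 6.44% a lower effect, and 0 members were lower. The immortalized and Ras +/+ groups also differ in the sex-linked genes given above, so Ras and the source of the cells cannot be told apart.

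Promoters of Psmd12 and Psmd5 are shown for the antioxidant response element core, searched as TGACNNNGC or TGAGNNNGC on both strands and printed in capitals (RefSeq, GRCm38.p6; chr11:107479278-107479557 on the plus and chr2:34870933-34871212 on the minus strand, 250 bases before to 30 after the start):
Psmd12: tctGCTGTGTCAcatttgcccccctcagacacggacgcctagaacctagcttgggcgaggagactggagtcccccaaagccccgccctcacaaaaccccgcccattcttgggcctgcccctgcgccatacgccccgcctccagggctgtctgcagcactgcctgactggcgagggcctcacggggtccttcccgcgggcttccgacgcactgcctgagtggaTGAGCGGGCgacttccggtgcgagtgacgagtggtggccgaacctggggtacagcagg
Psmd5: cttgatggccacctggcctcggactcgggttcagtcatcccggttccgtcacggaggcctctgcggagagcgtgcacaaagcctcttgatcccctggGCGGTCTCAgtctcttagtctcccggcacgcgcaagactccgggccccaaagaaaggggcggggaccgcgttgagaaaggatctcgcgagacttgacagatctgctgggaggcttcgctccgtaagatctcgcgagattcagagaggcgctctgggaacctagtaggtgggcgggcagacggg
Psmd12 holds 2 matches, which begin at -247 and -28 from the start, and Psmd5 holds 1, which begins at -153. Psmc6 holds 2 as well. Shares were counted in the same window, from 250 bases before to 30 after a start in the RefSeq table. Either form was found in 14 of the 32 members with a promoter (43.8%) and in 28.8% of 27025 genes. CCAAT, the letters bound by NF-Y, was found in 12 members (37.5%, against 39.7% of all genes), and GGGCGG, those bound by Sp1, in 20 (62.5%, against 37.3%). The antioxidant core was present in members that were lower in Ras cells (Psmc6, Psmd5, Psmd12) and in members that were higher (Psma4, Psmb3), and absent from the windows of Psma2, Psmd8, Psme1, Psme2 and Psme3.

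Between genes, levels were compared per kilobase of the longest principal transcript (RPKM, GENCODE M21). In immortalized +/+ cells the 32 subunits of the 26S particle ran from 14.6 RPKM (Psma3) to 211 (Psma6), a range of 14.5-fold. The beta ring was the most even there, from 48.0 (Psmb1) to 102 (Psmb4), a range of 2.12-fold, and it spanned 1.81-fold to 2.15-fold over the 7 groups. In immortalized +/- cells the 4 non-ATPase base genes spanned less (2.07-fold against 2.15-fold). The alpha ring spread 14.5-fold and the ATPases 9.08-fold, from Psmc6 (21.2) to Psmc3 (193). The ATPase range was 3.03-fold in Ras +/+ cells, where Psmc6 was at 56.7 RPKM. The assembly chaperone Psmd5 (9.58) and the activators Psme4 (5.95), Psme2 (16.4) and Psme1 (18.8) lay under the median of all members (48.5), as did Psmf1 (7.79). Lengths come from an annotation of another build than the reads. Because the longest principal transcript was used, a gene whose cells use a shorter transcript reads too low. Psma3 was divided by 2.846 kilobases and Psma6 by 1.042. In immortalized +/+ cells they stood at 41.5 and 220 RPM before that division.

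**Figure D4:**
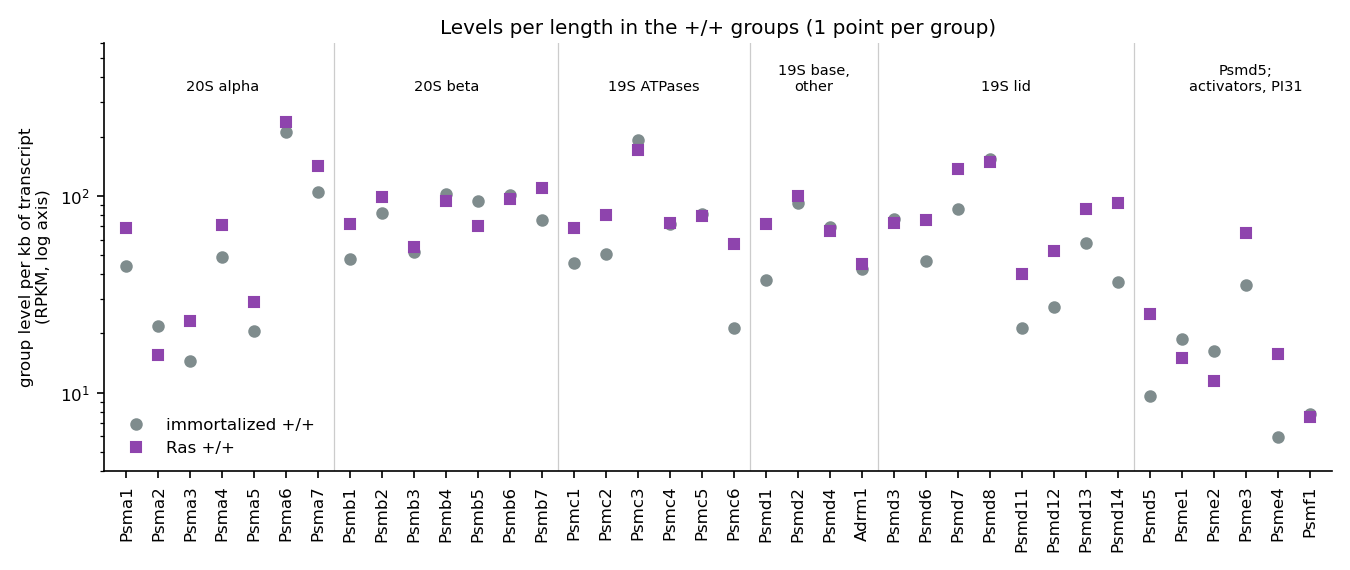
Group level per kilobase of transcript (RPKM, log axis) of the 38 members in immortalized +/+ (circles) and Ras +/+ cells (squares), ordered by role, 1 point per group. Psma6 lies highest in both, at 211 and 239 RPKM, Psme4 (5.95) and Psmf1 (7.49) lie lowest, and the beta ring spans 2.12-fold in immortalized +/+ cells.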

How the data were processed

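Poly(A) RNA of 17 libraries was made into cDNA libraries with either of 2 NEBNext kits and read on an Illumina Genome Analyzer IIx, as the labels' protocols state; which library had which kit is not given in the sources used here. The submitters' processing notes name CASAVA, FastQC, Bowtie 0.12.8, edgeR and the build mm9. The 2 deposited tables hold, per the file headers, the authors' log2 concentration, their log2 ratio of +/+ over another group and a p-value for each comparison; the Ras table also holds p-values adjusted by the authors. Ratios were turned round here.

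Group RPM was rebuilt from the deposited log2 values, and the depth from the steps of 1 read (0.0717 to 0.0879 RPM). Each comparison's common dispersion was fitted to the deposited p and equals a coefficient of variation of 12.7% to 32.4%. Deposited p-values were adjusted (Benjamini-Hochberg) over genes of at least 1 RPM. Differences between comparisons were tested by a Wald test with 0.5 reads added. Levels were not tested between tables: median absolute log2 difference of +/+ 0.60.

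Members and lists were chosen with earlier results of these data known. Every member called in any comparison, and the members at the ends of each role group in each comparison against +/+, are named. Coordinates are GRCm38, from GENCODE M21, not the mm9 of the reads; promoters are from RefSeq. The steps were tested on simulated data (Python 3.11.15, scipy 1.17.1). Psmb9 and Paaf1 were not analysed here, and 2 further genes of the lists are counted but not reported singly here.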

Additional observations from a re-analysis of the deposited data

Results flagged for a closer look

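For 7 genes the log2 ratio over +/+ differed between Ras-transformed and immortalized cells by a Wald test. The test was of the difference itself (Ras minus immortalized), adjusted over all genes. In -/- cells the difference was 1.44 for Psme1 and 1.33 for Psme2, and it was -1.03 for Psme4, -0.98 for Psme3, -0.98 for Psmd14, -0.97 for Psmd5 and -0.95 for Psmd12. In +/- cells it was 1.57 for Psme1 and 1.66 for Psme2. The share of members that differed was 18.4% in -/- and 5.3% in +/-, beside 20.7% and 13.3% of all genes tested, so it is not above the background. The Ras groups also differed in the epithelial, mesothelial and sex-linked genes given above, and their part in these differences was not tested. The +/+ groups differed between the sets too. Eif2s3y was at 18.7 RPM in immortalized +/+ and 0 RPM in Ras +/+ cells, and Xist at 89.6 and 336 RPM. Ras and such differences between the cultures cannot be told apart here.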

How the results depend on the processing

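No replicate was left out in turn and no replicate block was fitted. No paired analysis was possible because the deposited tables hold no value for a single library. No result reversed under any alternative run. The counts of members called in both immortalized genotypes, with the USP28 vector and between immortalized -/- and +/- stayed at 0 under every alternative run. At an adjusted p under 0.01 the Ras -/- count was 4 in place of 7, the Ras -/- against +/- count 0 in place of 2 and the count for the -/- effect in Ras minus immortalized cells 2 in place of 7. With the dispersion doubled these were 2, 0 and 1, the Ras +/- count was 5 in place of 9, and the +/- effect in Ras minus immortalized cells had 0 in place of 2. By the authors' adjusted p the Ras -/- count was 4. With the dispersion of the 2 groups only, an alternative added after seeing the data, 6 members differed between Ras -/- and +/-. Over all genes, doubling the dispersion took the called genes from 4381 to 2647 in Ras -/-, from 705 to 285 in immortalized -/- and from 1406 to 815 in immortalized +/-, while the number for Ras +/- moved by less than 1.5 times. It took the difference tests from 3214 to 1749 (Ras -/- against +/-), from 570 to 229 (immortalized -/- against +/-), from 3116 to 1680 and from 2024 to 1044 (-/- and +/- effects, Ras minus immortalized). The latter pair were 2055 and 1316 at an adjusted p under 0.01, where immortalized -/- had 424. Immortalized -/- against +/- had 346 with a mean of at least 5 RPM; with the dispersion of the 2 groups only it had 1202, and Ras -/- against +/- had 5178. Of 27 calls of a named member, 8 held in every alternative: Psme1 and Psme2 in both Ras genotypes, Psme1 in the -/- effect of Ras minus immortalized cells, and Psma2, Psmd5 and Psmd8 in Ras +/-. The errors rest on 1 dispersion for all genes of a comparison, so they are too small for genes that vary more between cultures.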
